A study of Homo sapiens with 4 samples.

Results

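The CDK inhibitor genes were followed in OCI-AML3 cells after mtNPM1 KO. They comprise the INK4 genes CDKN2A, CDKN2B, CDKN2C and CDKN2D, the CIP/KIP genes CDKN1A, CDKN1B and CDKN1C, and CDKN3, chosen by their symbols. All 8 were found by Ensembl identifier among the 58037 genes of the count table, and all 8 were among the 15718 genes with enough reads to be tested. OCI-AML3 is an established human AML cell line with heterozygous mutations of NPM1 and DNMT3A and a homozygous NRAS mutation, and it expresses cytoplasmic mutant NPM1 (mtNPM1). The cells were transfected with a control guide (sgRNA Ctrl, labelled sgNeg, 2 libraries) or with the guide against the mutant allele (sgNPM1A, 2 libraries). They were harvested 72 hours later, on day 3. No step that isolates single clones is described for these cells, so each library is a pool of cells. In such bulk RNA, fewer cells expressing a gene and less of its RNA per cell cannot be told apart.

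Cyclin-dependent kinases drive the cell cycle once bound to a cyclin. INK4 proteins bind CDK4 and CDK6 and keep them from D-type cyclins, whereas CIP/KIP proteins bind assembled cyclin-CDK complexes, above all those of CDK2. When D-type and E-type complexes are held back, RB1 and its relatives stay bound to E2F and entry into S phase is delayed. Several of these genes are silenced or deleted in cancers, and in myeloid cells their induction accompanies exit from the cycle and differentiation.

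Libraries held between 25069484 and 28276391 counts, and 3 counts, taken as the floor, correspond to between 0.106 and 0.120 counts per 1000000 counts of the library (CPM). Levels are given as CPM scaled by edgeR's TMM factors, with the SD over n = 2 libraries. The conditions were compared with the quasi-likelihood test of edgeR, and p-values were adjusted over all tested genes by the Benjamini-Hochberg method. Differences are log2 fold changes (log2FC) of sgNPM1A over sgRNA Ctrl. A gene was called changed where the adjusted p was below 0.05 and the log2FC was at least 0.32 in size, the fold threshold of the study. The targeted gene NPM1 had 1317 and 1384 CPM with sgRNA Ctrl and 1188 and 1131 CPM with sgNPM1A, a log2FC of -0.22 (edgeR adjusted p = 0.0360), under the fold threshold. Gene counts add the mutant and wild-type alleles. The value for NPM1 depended on the processing: limma-trend on quantile-normalized values gave -0.42 (adjusted p = 0.00108) and called it lower, while the adjusted p was 0.156 with the replicate block, 0.0746 without sgRNA Ctrl 2, 0.203 without sgNPM1A 1 and 0.430 without sgNPM1A 2. The 5 myeloid markers examined (PTPRC, CD33, MPO, ANPEP and SPI1) summed to between 786 and 827 CPM in the sgRNA Ctrl libraries and to 1030 CPM in each sgNPM1A library, and MPO, ANPEP and SPI1 were called higher. CD3D, CD3E, MS4A1, HBB and EPCAM had no count in any library. Of the fibroblast markers, COL1A2 had 698 and 740 counts with sgRNA Ctrl and 361 and 259 with sgNPM1A and was called lower, while COL1A1 had between 2 and 6. The part of these differences in the results below was not tested.

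The start regions of the genes that changed are shown first, because CDKN2A, the gene of the 8 with the largest change, is read from a pair of separate starts. The more distant start yields p14ARF and the nearer one p16INK4a, proteins that share no reading frame, and gene counts add both. The RefSeq table of start regions on GRCh38.p14 was matched for 7 of the 8 genes, all but CDKN1C, with 10 starts in all. Each sequence below is the 250 bases before a start, written 5′ to 3′ along the gene. Capitals mark GC boxes (GGGCGG or CCGCCC), E-boxes (CACGTG, the core sequence bound by MYC and MAX) and the MEIS core (TGACAG or CTGTCA).
CDKN2A, p16INK4a start, chr9:21974858-21975107, minus strand: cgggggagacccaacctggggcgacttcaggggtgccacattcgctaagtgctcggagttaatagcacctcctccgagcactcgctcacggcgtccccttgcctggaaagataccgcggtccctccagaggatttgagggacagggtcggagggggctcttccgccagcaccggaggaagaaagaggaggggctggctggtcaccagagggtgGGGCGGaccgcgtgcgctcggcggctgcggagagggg
CDKN2A, p14ARF start, chr9:21995325-21995574, minus strand: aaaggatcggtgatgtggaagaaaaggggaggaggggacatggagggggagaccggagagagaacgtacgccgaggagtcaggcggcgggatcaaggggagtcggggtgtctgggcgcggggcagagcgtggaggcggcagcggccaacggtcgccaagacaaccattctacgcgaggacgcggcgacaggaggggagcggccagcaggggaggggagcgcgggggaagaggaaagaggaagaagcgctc
CDKN1A, chr6:36678464-36678713, plus strand: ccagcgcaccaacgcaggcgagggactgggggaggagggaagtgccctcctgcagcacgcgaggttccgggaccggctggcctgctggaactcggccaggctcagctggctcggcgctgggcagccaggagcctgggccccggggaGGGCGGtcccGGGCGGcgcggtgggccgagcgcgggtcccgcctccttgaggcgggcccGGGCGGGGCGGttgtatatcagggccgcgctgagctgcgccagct
CDKN1B, chr12:12717118-12717367, plus strand: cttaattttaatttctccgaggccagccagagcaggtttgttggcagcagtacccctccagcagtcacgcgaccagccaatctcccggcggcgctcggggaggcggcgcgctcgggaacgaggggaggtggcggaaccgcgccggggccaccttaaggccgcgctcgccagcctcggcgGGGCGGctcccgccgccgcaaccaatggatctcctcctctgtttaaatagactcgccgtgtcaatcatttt
CDKN2C, middle start, chr1:50968456-50968705, plus strand: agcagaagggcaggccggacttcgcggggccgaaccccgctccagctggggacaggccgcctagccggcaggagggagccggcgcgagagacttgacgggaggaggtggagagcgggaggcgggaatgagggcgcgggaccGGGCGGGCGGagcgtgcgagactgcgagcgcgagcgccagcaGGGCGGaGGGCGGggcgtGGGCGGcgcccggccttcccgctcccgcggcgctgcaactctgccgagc
CDKN2C, last start, chr1:50969995-50970244, plus strand: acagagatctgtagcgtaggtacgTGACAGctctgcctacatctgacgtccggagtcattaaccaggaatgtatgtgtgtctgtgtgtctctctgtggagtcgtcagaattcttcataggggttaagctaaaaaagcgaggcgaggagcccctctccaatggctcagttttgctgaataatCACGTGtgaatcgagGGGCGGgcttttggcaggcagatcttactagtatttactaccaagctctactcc
A GC box was present in 7 of the 10 windows, against 42.6% of the 34788 distinct windows of this length in the RefSeq table. GC boxes numbered 5 before the middle start of CDKN2C and 4 before the start of CDKN1A, and none lay before the p14ARF start of CDKN2A. E-boxes were found in 2 windows, both of CDKN2C, against 6.31% of all windows, and the MEIS core in the same 2 windows, against 4533 of the 34788. Windows of CDKN2C with an E-box or MEIS core were that before its first start, not printed, with 1 E-box and 2 MEIS cores, and that before its last start, with 1 of each. The E2F sequences TTTCCCGC, TTTCGCGC, TTTGCCGC and TTTGGCGC, the FOXO sequence GTAAACA and the ETS sequence CCGGAAGT, each searched on both strands, were in none of the 10 windows; 2.78%, 2.98% and 3.41% of all windows held one. These are matches of letters only.

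With mtNPM1 KO, 2 of the 8 genes rose and 2 fell, from both families. CDKN2A rose 5.23-fold and CDKN1A rose 1.98-fold, while CDKN2C and CDKN1B fell, being 1.99-fold and 1.49-fold higher in sgRNA Ctrl. CDKN2B, CDKN2D, CDKN1C and CDKN3 were not called. Among all tested genes 20.8% were called, 10.5% higher and 10.3% lower. The 8 genes had a median log2FC of 0.02, and that of all tested genes was 0.00.

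**Figure D1:**
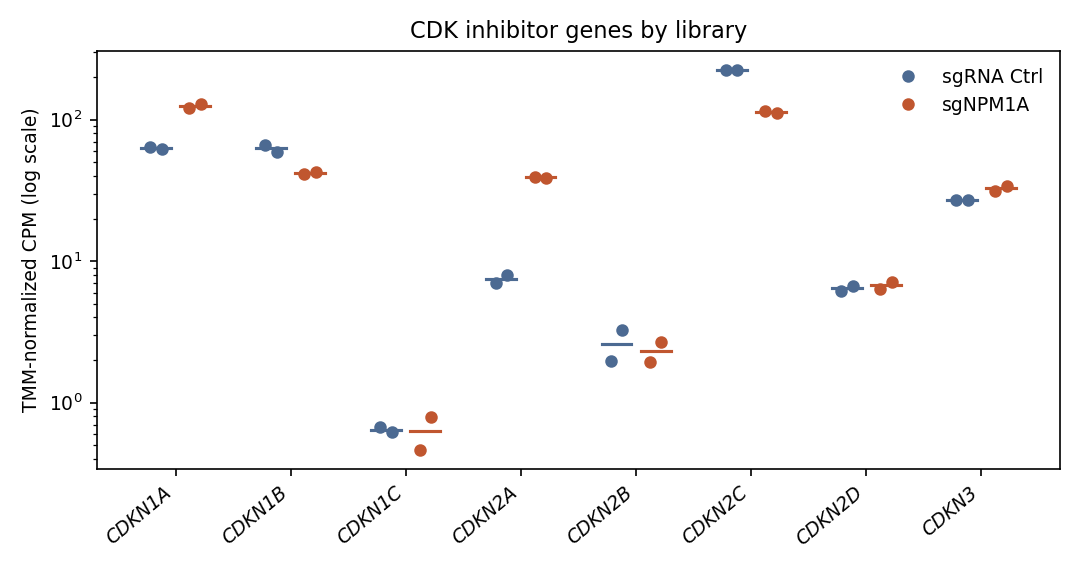
Level of each CDK inhibitor gene in every library, in TMM-normalized CPM on a log axis; points are libraries and short lines are means of the 2 libraries of a condition. The points of CDKN1A, CDKN1B, CDKN2A, CDKN2C and CDKN3 do not overlap between conditions, and those of CDKN1C, CDKN2B and CDKN2D do. The conditions do not overlap in 63.1% of all tested genes.

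CDKN2A encodes p16INK4a, an inhibitor of CDK4 and CDK6, and p14ARF, which restrains the ubiquitin ligase MDM2. It lies on chromosome 9 of GRCh38.p14 from 21967752 to 21995324. CDKN2A had 178 and 208 counts in the sgRNA Ctrl libraries and 1105 and 1083 in the sgNPM1A libraries, that is 7.51 ± 0.726 CPM (SD, n = 2) against 39.3 ± 0.450 CPM. Both sgNPM1A libraries lay far above both controls, and the libraries of a condition lay close together. The log2FC was 2.39 (standard error 0.10, 95% interval 2.16 to 2.61, edgeR adjusted p = 8.18e-08), the 77th largest rise of the 15718 tested genes. With any 1 library left out it lay between 2.29 and 2.49.

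Of the 50-base words in CDKN2A transcripts, 12.9% also occur in CDKN2B or in CDKN2B-AS1, the antisense RNA whose gene overlaps both. CDKN2B-AS1 had 2 and 1 counts with sgRNA Ctrl and 11 and 4 with sgNPM1A and was not tested. CDKN2A-DT, transcribed away from CDKN2A, had 0 counts in both controls and 3 and 4 counts with sgNPM1A. Whether counting used the strand is not given in the sources used here, so sense and antisense reads may not have been separated. The part of reads from these noncoding genes in the CDKN2A counts was not tested.

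CDKN2B encodes p15INK4b, a close relative of p16INK4a, and lies 7579 bases from CDKN2A, on chromosome 9 from 22002903 to 22009313. It had 50 and 84 counts with sgRNA Ctrl and 54 and 74 with sgNPM1A, or 2.60 ± 0.901 and 2.30 ± 0.514 CPM (SD, n = 2). The conditions overlapped, and in each the library numbered 1 was the lower. Its log2FC was -0.18 (95% interval -0.76 to 0.40, edgeR adjusted p = 0.663), an interval that does not reach the rise of its neighbour CDKN2A. MTAP, the nearest tested gene on the other side of CDKN2A at 26637 bases, had 1446 and 1328 counts against 1410 and 1339, a log2FC of -0.13 (edgeR adjusted p = 0.277).

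CDKN2C encodes p18INK4c, an INK4 protein known in early blood progenitors and B cell differentiation, and lies on chromosome 1 from 50960745 to 50974634. CDKN2C had 5689 and 5841 counts with sgRNA Ctrl and 3212 and 3080 with sgNPM1A, or 224.4 ± 1.21 and 113.0 ± 3.04 CPM (SD, n = 2). Both sgNPM1A libraries lay well under both controls, and the libraries of a condition differed little. The log2FC was -0.99 (standard error 0.06, 95% interval -1.13 to -0.85, edgeR adjusted p = 1.13e-06), which ranked 600th among falls. Of its 50-base words 19.2% are shared with ENSG00000290102, an identifier for which no counts were analysed here. FAF1, the nearest tested gene, lies 478 bases away and also fell, by 0.33 in log2FC (edgeR adjusted p = 0.00537). RNF11, the nearest tested gene on the other side at 261639 bases, had a log2FC of 0.06 (edgeR adjusted p = 0.826).

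CDKN2D encodes p19INK4d, the INK4 protein best known for its periodic expression in the cycle, and lies on chromosome 19 from 10566460 to 10568979. CDKN2D had 157 and 174 counts with sgRNA Ctrl and 177 and 198 with sgNPM1A, or 6.44 ± 0.382 and 6.73 ± 0.552 CPM (SD, n = 2). The conditions overlapped, and the log2FC was 0.06 (95% interval -0.25 to 0.37, edgeR adjusted p = 0.783). Changes larger than 1.30-fold upwards lie outside this interval. KRI1, 450 bases away, had a log2FC of -0.24 (edgeR adjusted p = 0.0213), under the fold threshold.

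CDKN1A encodes p21, the CIP/KIP protein that is induced after DNA damage and also rises in myeloid differentiation. It lies on chromosome 6 from 36676463 to 36687332. CDKN1A had 1629 and 1602 counts with sgRNA Ctrl and 3353 and 3578 with sgNPM1A, or 62.9 ± 1.58 and 124.4 ± 6.06 CPM (SD, n = 2). Both sgNPM1A libraries were higher than both controls by far more than either pair differed. The log2FC was 0.98 (standard error 0.07, 95% interval 0.83 to 1.14, edgeR adjusted p = 2.81e-06), the 626th largest rise. Of its 50-base words 3.27% are shared with DINOL, for which no counts were analysed here. RAB44, which lies 10494 bases from CDKN1A, rose as well, from 1124 and 1214 to 2285 and 2464 counts, a log2FC of 0.91 (edgeR adjusted p = 9.42e-06). SRSF3, the nearest tested gene on the other side at 70863 bases, had a log2FC of -0.01 (edgeR adjusted p = 0.965).

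CDKN1B encodes p27, which restrains CDK2 in resting cells and is removed by the SKP2 ubiquitin ligase as cells enter S phase. It lies on chromosome 12 from 12717368 to 12722369. CDKN1B had 1681 and 1543 counts with sgRNA Ctrl and 1155 and 1194 with sgNPM1A, or 62.8 ± 4.63 and 42.2 ± 1.11 CPM (SD, n = 2). The conditions did not overlap, as in 63.1% of all tested genes. The log2FC was -0.57 (standard error 0.08, 95% interval -0.75 to -0.39, edgeR adjusted p = 0.000379). APOLD1, 3548 bases from it, had 172 and 249 counts against 152 and 151 and fell by 0.59 in log2FC (edgeR adjusted p = 0.0279). GPR19, 122 bases away on the other side, had 32 and 38 counts against 35 and 26, with a log2FC of -0.31 (edgeR adjusted p = 0.453).

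CDKN1C encodes p57, a CIP/KIP protein that maintains quiescence of hematopoietic stem cells. The gene is imprinted and lies on chromosome 11 from 2883218 to 2885775. CDKN1C had 17 and 16 counts with sgRNA Ctrl and 13 and 22 with sgNPM1A, or 0.643 ± 0.0361 and 0.629 ± 0.230 CPM (SD, n = 2). The sgNPM1A libraries lay on either side of the controls. The log2FC was -0.03 (95% interval -0.87 to 0.81, edgeR adjusted p = 0.965). Levels with sgNPM1A between 0.546 and 1.75 times those of sgRNA Ctrl lie inside the interval, so changes within these bounds remain possible. The smallest change detectable at this depth was not computed. KCNQ1OT1, the noncoding RNA of the same imprinted domain, had 110 and 94 counts against 113 and 125 (log2FC 0.11, edgeR adjusted p = 0.700). PHLDA2, another gene of that domain 42498 bases from CDKN1C, fell by 0.71 in log2FC (edgeR adjusted p = 0.00346).

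CDKN3 encodes KAP, a phosphatase that removes the activating phosphate of CDK2 and CDK1 and is itself expressed towards mitosis; it belongs to neither inhibitor family. It lies on chromosome 14 from 54397007 to 54420218. CDKN3 had 691 and 702 counts with sgRNA Ctrl and 880 and 941 with sgNPM1A, or 27.1 ± 0.0571 and 32.7 ± 1.64 CPM (SD, n = 2). The conditions did not overlap, which also held for 63.1% of all tested genes. The log2FC was 0.27 (standard error 0.09, 95% interval 0.08 to 0.46, edgeR adjusted p = 0.0381), under the fold threshold, and the adjusted p was over 0.05 in 7 of 13 other fits, between 0.0694 and 0.358. An adjusted p under 0.05 without regard to fold was reached by 26.0% of tested genes. CNIH1, 3343 bases from it, had a log2FC of -0.30 (edgeR adjusted p = 0.0334), also under the fold threshold.

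**Figure D2:**
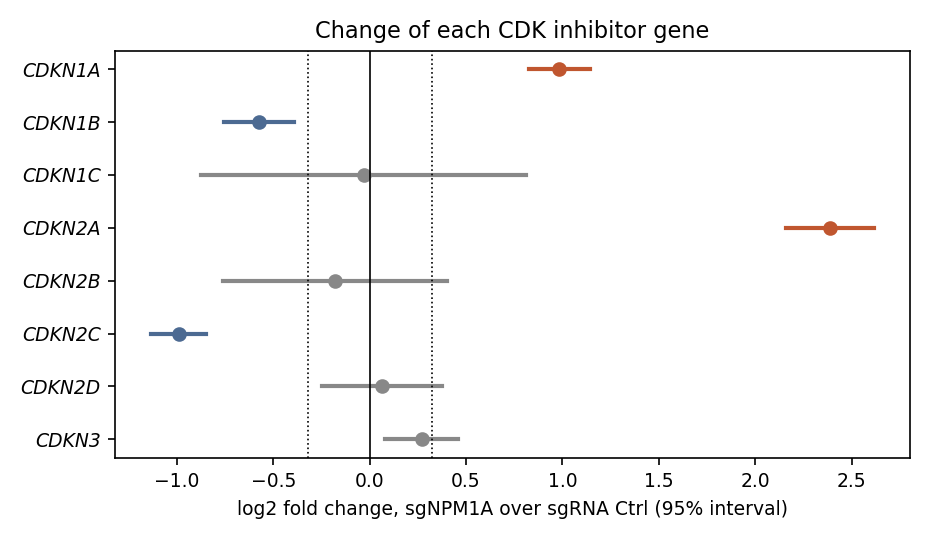
Log2FC of each CDK inhibitor gene with its 95% interval from edgeR; dotted lines mark the fold threshold, a log2FC of 0.32 in either direction. CDKN2A and CDKN1A lie to the right of the threshold and CDKN2C and CDKN1B to the left, each with its whole interval, whereas the intervals of CDKN1C, CDKN2B and CDKN2D span 0.

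**Figure D3:**
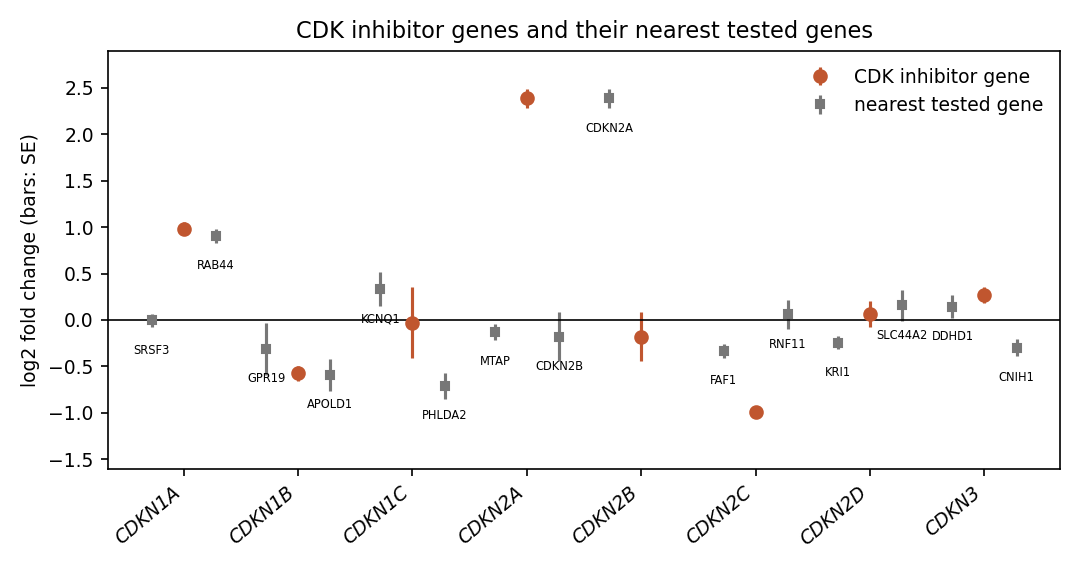
Log2FC with standard error of each CDK inhibitor gene (circles) and of the nearest tested gene on either side (squares, named). CDKN2A lies at 2.39, MTAP at -0.13 and CDKN2B at -0.18, while RAB44 lies at 0.91 beside CDKN1A and APOLD1 at -0.59 beside CDKN1B.

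Levels of different genes were compared per kilobase of the MANE Select transcript, the reference transcript of each gene, as CPM per kilobase. With sgRNA Ctrl, CDKN2C came first with 224.7 and 226.4 in the 2 libraries, followed by CDKN3 with 32.2 ± 0.0707 (SD, n = 2), CDKN1A with 29.7 ± 0.742 and CDKN1B with 26.0 ± 1.92. CDKN2A with 7.68 ± 0.742, CDKN2D with 4.52 ± 0.268, CDKN2B with 0.675 ± 0.234 and CDKN1C with 0.362 ± 0.0203 came after. The libraries of neighbours in this order did not overlap. With sgNPM1A the order was CDKN2C with 114 ± 3.04, CDKN1A with 58.8 ± 2.86, CDKN2A with 40.2 ± 0.460 and CDKN3 with 38.9 ± 1.95, then CDKN1B with 17.5 ± 0.460. CDKN2A and CDKN3 overlapped in it. CDKN2A thus stood in the 5th place with sgRNA Ctrl and in the 3rd with sgNPM1A, and with all annotated exons merged as the length it stood in the 6th place, after CDKN2D, and in the 4th, after CDKN3.

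The make-up of each family differed between the conditions. CDKN2C held 94.6% ± 0.424 (SD, n = 2) of the INK4 sum per kilobase with sgRNA Ctrl and 71.4% ± 0.566 with sgNPM1A, and CDKN2A held 3.22% ± 0.283 and 25.2% ± 0.212. The INK4 sum itself was 238 ± 2.47 CPM per kilobase with sgRNA Ctrl and 159 ± 2.97 with sgNPM1A. Within the CIP/KIP sum, CDKN1A held 52.1% and 53.8% in the sgRNA Ctrl libraries and 76.5% and 76.9% in the sgNPM1A libraries, and CDKN1B held 47.2% and 45.5% against 23.1% and 22.5%. That sum was 56.1 ± 2.69 CPM per kilobase with sgRNA Ctrl and 76.6 ± 3.46 with sgNPM1A. These sums were not tested. With all annotated exons merged as the length, a choice added after the data were seen, the INK4 sum was 81.2 ± 1.07 and 52.6 ± 0.622 and the CIP/KIP sum 28.8 and 27.3 with sgRNA Ctrl and 44.8 and 47.9 with sgNPM1A. With that length CDKN1A held 74.9% ± 0.849 of the CIP/KIP sum with sgRNA Ctrl and 89.6% with sgNPM1A, and CDKN1B held 24.2% ± 0.849 and 9.84% ± 0.219. CDKN1A also came before CDKN2C in the sgNPM1A libraries, with 41.5 ± 2.02 against 37.4 ± 1.00.

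**Figure D4:**
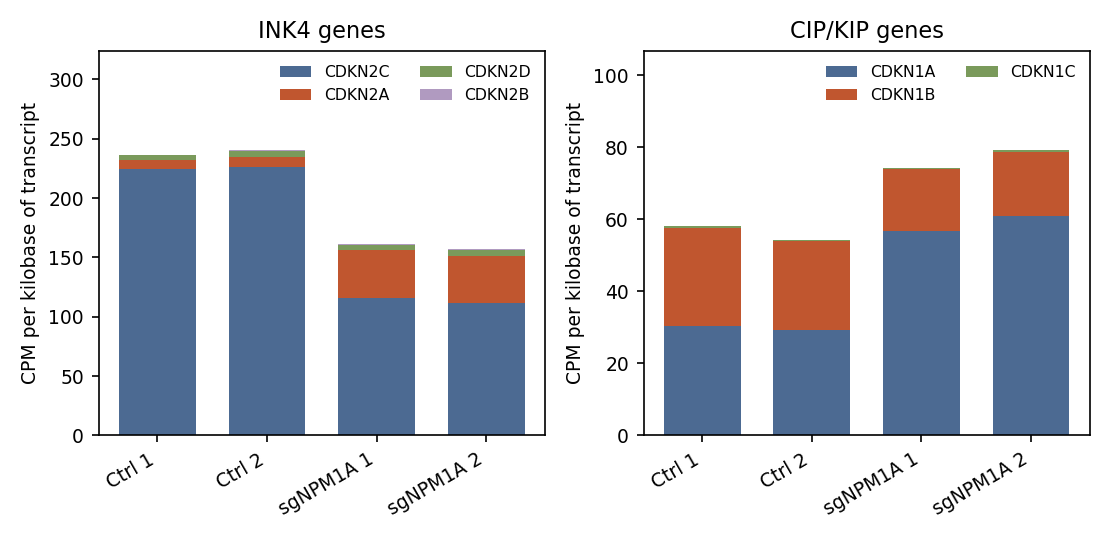
Stacked CPM per kilobase of the MANE Select transcript of INK4 genes (left) and CIP/KIP genes (right) in each of the 4 libraries. The INK4 stack is lower with sgNPM1A, with a smaller CDKN2C and a larger CDKN2A portion, and the CIP/KIP stack is higher, with more CDKN1A and less CDKN1B.

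The partners of the inhibitors were followed with lists of genes. Of all tested genes, 10.5% were called higher and 10.3% lower. Of 7 kinases, 2 fell and none rose, with a median log2FC of -0.20. CDK6, the INK4 target prominent in blood cells, had 389 and 369 CPM with sgRNA Ctrl and 217 and 212 with sgNPM1A, a log2FC of -0.82 (edgeR adjusted p = 4.93e-06). CDK2 fell by 0.45 in log2FC (edgeR adjusted p = 0.000974). The other INK4 target, CDK4, had a log2FC of 0.09 (95% interval -0.05 to 0.235, edgeR adjusted p = 0.328). CDKN2C and CDK6 were thus both lower, and CDK4 was not called.

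Of the 10 cyclins 9 were tested, with a median log2FC of 0.04; 1 rose and 2 fell. CCND1, a D-type cyclin, had 1206 and 1127 counts with sgRNA Ctrl and 780 and 709 with sgNPM1A, a log2FC of -0.76 (edgeR adjusted p = 8.32e-05). CCND3, another D-type cyclin, had a log2FC of 0.04 (edgeR adjusted p = 0.731), and CCND2, with between 1 and 5 counts, was not tested. CCNE2, an E-type cyclin that activates CDK2, fell by 0.73 in log2FC (edgeR adjusted p = 0.00924; 0.0640 without sgRNA Ctrl 1). CCNA1, a cyclin of germ cells also found in myeloid leukemias, rose from 10 and 6 counts to 136 and 167, a log2FC of 4.11 (edgeR adjusted p = 2.11e-06). CCNA1 is not tested where at least 10 counts are required in every library. The pocket proteins RB1, RBL1 and RBL2 had a median log2FC of 0.05, and none was called. RB1 itself had a log2FC of -0.30 (edgeR adjusted p = 0.0815), and it was called lower without sgRNA Ctrl 2 (adjusted p = 0.0121).

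Of 12 genes that degrade CIP/KIP proteins or assist in it, 1 rose and none fell, with a median log2FC of 0.02. CUL1, the scaffold of the SKP2 ligase, had 1833 and 1869 counts with sgRNA Ctrl and 4020 and 4467 with sgNPM1A, a log2FC of 1.08 (edgeR adjusted p = 1.85e-06). SKP2, its subunit that recognizes p27, had a log2FC of -0.12 (edgeR adjusted p = 0.321). Without sgRNA Ctrl 2, 3 genes of this list were called higher, CUL1, UBAC1 and RBX1.

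Known activators of the inhibitor genes had a median log2FC of -0.23. Of 12 tested, 4 fell and none rose, against 10.3% and 10.5% of all tested genes. The 4 were ETS2, which can activate CDKN2A, with a log2FC of -1.56 (edgeR adjusted p = 4.44e-07), and FOXO1, FOXO3 and FOXO4, which activate CDKN1B, with -1.32 (adjusted p = 3.52e-05), -0.52 (adjusted p = 0.000705) and -0.42 (adjusted p = 0.0158). The adjusted p of FOXO4 was 0.148 without sgNPM1A 2 and 0.0509 with DESeq2. MEN1 and KMT2A, whose complex is known to maintain CDKN1B and CDKN2C expression, had a log2FC of -0.12 (edgeR adjusted p = 0.207) and -0.29 (edgeR adjusted p = 0.0172), the latter under the fold threshold. With library sizes alone, 5 activators were called lower, and so were 1947 of all tested genes, against 1619 with TMM factors. Without sgRNA Ctrl 1, TP73 was called higher, without sgRNA Ctrl 2 ETS1 was called lower, and without sgNPM1A 1 KMT2A was called lower.

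Of 9 known repressors 1 rose and 1 fell, with a median log2FC of 0.03. TBX3, a repressor of the CDKN2A locus, rose from 236 and 237 counts to 669 and 682, a log2FC of 1.40 (edgeR adjusted p = 2.65e-06). ID1 fell by 0.41 in log2FC (edgeR adjusted p = 0.00330; 0.0732 without sgNPM1A 2). MYC, which represses CDKN1A and CDKN2B with MIZ1, had 410 and 403 CPM against 351 and 332, a log2FC of -0.25 (edgeR adjusted p = 0.0159), under the fold threshold. Between 0 and 2 repressors were called lower when single libraries were left out, 0 without sgNPM1A 2, ID1 and CBX8 without sgRNA Ctrl 1, and ID1 and RNF2 without sgRNA Ctrl 2. With library sizes alone 3 were called lower, ID1, CBX8 and RNF2, and with no filter on low counts 2, ID1 and RNF2. All tested genes called lower then numbered 1947 and 1849, against 1619 with the TMM factors and filter used elsewhere.

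Mitotic genes, which share the timing of CDKN3, had a median log2FC of 0.03, and of 13, 2 rose and none fell. CKS2, a subunit of CDK complexes, rose by 0.50 in log2FC (edgeR adjusted p = 0.000726), and AURKA, a mitotic kinase, by 0.33 in log2FC (edgeR adjusted p = 0.0116; 0.0987 without sgNPM1A 2). AURKA was also under the fold threshold with library sizes alone or upper-quartile scaling. Only CKS2 was called without sgRNA Ctrl 2 or without sgNPM1A 2. CDK1, CCNB1 and CCNB2 had log2FC values of 0.04, 0.09 and 0.03, beside 0.27 for CDKN3.

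**Figure D5:**
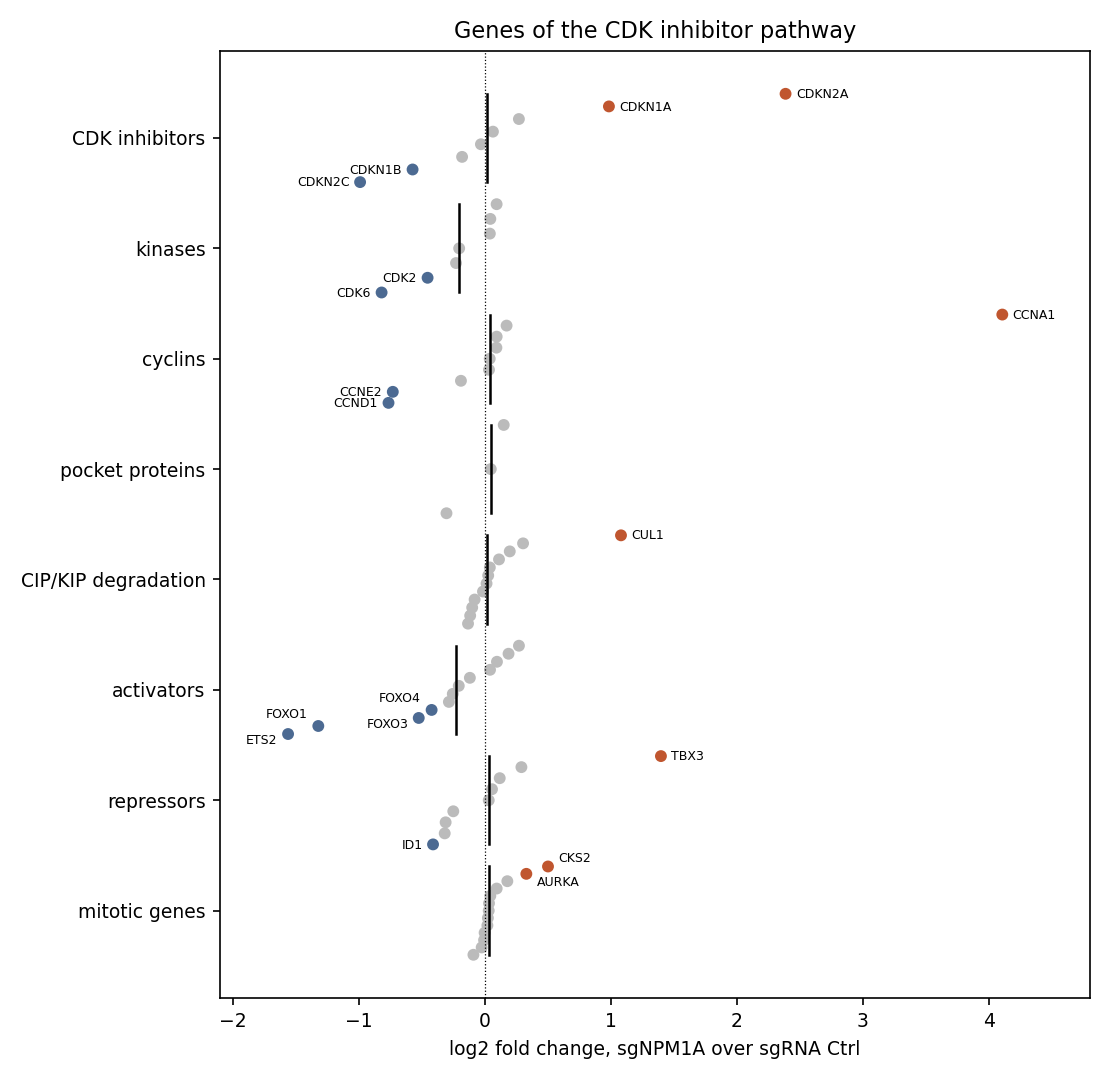
Log2FC of the tested genes of each list, with called genes coloured and named (orange higher, blue lower), other genes grey, and a vertical bar at each list's median. Medians lie near 0 for most lists and at -0.20 and -0.23 for kinases and activators; CCNA1, CDKN2A, ETS2 and TBX3 lie farthest out.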

How the data were processed

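RNA-Seq of OCI-AML3 cells covered 2 libraries with sgRNA Ctrl and 2 with sgNPM1A. Per the study's methods, STAR aligned the reads to hg38. The authors deposited 1 table of raw counts per Ensembl gene, without normalization. The counting program, strand setting and annotation release are not given in the sources used here. The sums ranged from 25069484 to 28276391 counts per library. The study calls the libraries biological replicates.

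Symbols were matched for 55603 identifiers. edgeR 4.0.16 in R 4.3.3 was used with filterByExpr (minimum count 10), TMM, robust dispersions and the two-sided quasi-likelihood test. The count of tested genes with no overlap between conditions used CPM. Alternatives were DESeq2 1.42.0, limma-trend 3.58.1, other normalizations, filters and thresholds, a replicate block, and leaving out each library. With a library left out, the lone library of its condition is assumed to vary like the other condition. Counts of the libraries of a condition differed with a chi-square per degree of freedom of 9.04 with sgRNA Ctrl and 4.18 with sgNPM1A. The conditions thus did not vary alike. An exact permutation test of 2 against 2 libraries cannot go below p = 0.333 and was not used. Standard errors were the size of the log2FC divided by the square root of the F statistic from edgeR's moderated fit. Intervals of fold changes were built from them and the fit's degrees of freedom. The comparison was also tested on simulated counts, drawn with means and a dispersion estimated from these data.

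Positions and start regions are those of RefSeq on GRCh38.p14. Exon lengths and shared 50-base words come from GENCODE 44 mapped to GRCh37, of which no coordinates are used. Members and lists were chosen with earlier results of these data known. Named were all 8 genes, NPM1, the called genes of each list (at most the 4 with the smallest adjusted p), the kinases, D-type cyclins and regulators fixed by name, the nearest tested gene on each side, and the noncoding transcripts of these loci. CDK1, CCNB1, CCNB2, UBAC1, RBX1, TP73, ETS1, CBX8 and RNF2 were named after their values were seen. A listed regulator and 1 of the gene lists are not reported here. PANDAR had no count, and the neighbours KCNQ1, DDHD1 and SLC44A2 were not called.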

Additional observations from a re-analysis of the deposited data

How the results depend on the processing

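The 4 called genes kept their direction in all 13 refits, with adjusted p-values of at most 0.000127 for CDKN1A, 0.00186 for CDKN1B, 1.26e-05 for CDKN2A and 4.44e-05 for CDKN2C, and stayed called; DESeq2, limma-trend, other normalizations and filters, the blocks and each left-out library are included. A fold change of at least 2 kept 1 gene higher (CDKN2A) and 0 lower, and among all tested genes 498 higher and 502 lower; CDKN1A, with 0.98, and CDKN2C, with -0.99, lay just under that threshold. Some uncalled genes changed sign when 1 library was left out. The log2 fold change of CDKN1C ranged from -0.457 to 0.302, being 0.025 without sgRNA Ctrl 1 and highest without sgNPM1A 1. That of CDKN2B ranged from -0.496 to 0.226, highest without sgRNA Ctrl 2 and 0.034 without sgNPM1A 1. That of CDKN2D ranged from -0.0193 to 0.148, lowest without sgNPM1A 2. The cause was not tested. Of 256 list counts under alternatives, 223 stayed within 1.5 times. These include counts that were 0 in both fits and those of the list not reported here.

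Same-numbered libraries deviated from their condition means with a correlation of -0.130 across tested genes. Across the 8856 genes over 10 CPM it was -0.523 (genes are not independent replicates). The numbers were therefore not taken to pair the libraries. A negative correlation means that libraries of different number deviated alike. The source of this shared deviation was not tested. The replicate block gave 1637 genes higher and 1604 lower, and log2 fold changes of 2.39 for CDKN2A and -0.99 for CDKN2C. It kept the 4 calls, and the adjusted p of CDKN3 became 0.119. The crossed block, which pairs libraries of different number and was added after the data were seen, gave 1955 and 1918. Depth limits CDKN1C and CDKN2B most, with at most 22 and 84 counts per library.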
